A study of Mus musculus with 5 samples.

Results

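The T-box family was followed here through 10 of its genes, chosen by symbol: T, Eomes, Tbx1, Tbx2, Tbx3, Tbx4, Tbx5, Tbx6, Tbx15 and Tbx20. They were set against all 21031 protein-coding genes with a RefSeq mRNA. Where the proteins KAP1 and Ring1b sat at these genes was taken from peaks of chromatin immunoprecipitation followed by sequencing (ChIP-seq) in mouse embryonic stem cells grown on irradiated embryonic fibroblasts. The study made 5 libraries, 1 for each group. Ring1b was pulled down in KAP1 fl/fl cells with 4-hydroxytamoxifen, in Ring1b fl/fl cells with 4-hydroxytamoxifen, and in Ring1b fl/fl cells with ethanol vehicle. KAP1 was pulled down in KAP1 fl/fl cells, once with 4-hydroxytamoxifen and once with vehicle. The fl/fl alleles are conditional and are deleted after tamoxifen. Drug or vehicle was given for 24 h and culture went on for 48 h, with tamoxifen in the Ring1b fl/fl line and without it in the KAP1 fl/fl line. The labels do not say how many clones each line came from.

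T-box genes encode transcription factors that share a DNA-binding domain, the T-box, and direct the formation of mesoderm, endoderm, heart and limbs. Most are silent in pluripotent cells and are switched on at gastrulation or later, although Tbx3 is known to be active in mouse embryonic stem cells. Ring1b, encoded by Rnf2, is the enzyme subunit of the Polycomb complex PRC1, which ubiquitinates histone H2A and keeps developmental genes repressed. KAP1, encoded by Trim28, is a corepressor that KRAB zinc finger proteins bring to DNA.

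Each peak list compares 1 library with another. The KAP1 list was called on vehicle cells against tamoxifen cells of the same KAP1 fl/fl line and held 82775 peaks. The vehicle Ring1b list was called against tamoxifen cells of the same Ring1b fl/fl line and held 13516 peaks. The knockout list holds Ring1b peaks of tamoxifen-treated KAP1 fl/fl cells called against Ring1b from tamoxifen-treated Ring1b fl/fl cells, which are another line, and had 8928 peaks. A peak's score is 10 times the authors' −log10 p and ranks peaks only within its list, and the lowest score was 50.0 in each list. Many high Ring1b scores are tied at 3100, which 732 peaks carry, and 784 peaks reach it or more. Whether 3100 is a ceiling of the caller is not stated in the sources used here, so peaks at or above it are not ranked against each other. The sources used here give no read depths, no value has a replicate error, and no difference was tested. Peak lists give no expression, so neither the cell type nor the deletions could be checked against marker genes. KAP1 and Ring1b were mapped in different lines, so a shared site need not mean that both bind in 1 cell.

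Promoter sequences are shown for 5 members with a matched RefSeq promoter, with and without bases under peaks, and do not span the whole family. They come from RefSeq on build GRCm38.p6, run from 250 bp before to 50 bp after the transcript start, and are written 5′ to 3′ on the gene's strand. Capitals mark CG dinucleotides. At T all 300 bp lay under Ring1b and 189 bp also under KAP1, at Eomes all lay under Ring1b and none under KAP1, and at Tbx20 all lay under both. At Tbx6 and at the downstream start of Tbx4 no base lay under a peak of any list.
T chr17:8434173-8434472 (plus strand): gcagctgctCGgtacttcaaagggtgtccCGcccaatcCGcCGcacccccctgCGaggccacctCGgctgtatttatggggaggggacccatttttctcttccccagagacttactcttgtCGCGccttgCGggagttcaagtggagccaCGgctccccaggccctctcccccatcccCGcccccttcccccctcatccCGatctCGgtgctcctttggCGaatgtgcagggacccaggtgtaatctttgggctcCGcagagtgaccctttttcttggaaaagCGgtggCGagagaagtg
Eomes chr9:118477939-118478238 (plus strand): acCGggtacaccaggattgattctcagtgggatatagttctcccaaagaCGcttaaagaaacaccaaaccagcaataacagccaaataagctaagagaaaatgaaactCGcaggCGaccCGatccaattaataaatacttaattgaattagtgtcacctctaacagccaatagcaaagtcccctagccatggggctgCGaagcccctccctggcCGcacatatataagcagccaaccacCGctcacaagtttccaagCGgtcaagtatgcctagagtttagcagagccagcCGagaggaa
Tbx20 chr9:24774254-24774553 (minus strand): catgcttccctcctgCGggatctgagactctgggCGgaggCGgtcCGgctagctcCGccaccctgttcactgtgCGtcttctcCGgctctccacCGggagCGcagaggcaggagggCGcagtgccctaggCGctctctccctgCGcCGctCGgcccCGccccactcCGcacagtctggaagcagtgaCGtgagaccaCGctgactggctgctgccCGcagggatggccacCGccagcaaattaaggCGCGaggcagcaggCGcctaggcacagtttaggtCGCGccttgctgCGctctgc
Tbx6 chr7:126781233-126781532 (plus strand): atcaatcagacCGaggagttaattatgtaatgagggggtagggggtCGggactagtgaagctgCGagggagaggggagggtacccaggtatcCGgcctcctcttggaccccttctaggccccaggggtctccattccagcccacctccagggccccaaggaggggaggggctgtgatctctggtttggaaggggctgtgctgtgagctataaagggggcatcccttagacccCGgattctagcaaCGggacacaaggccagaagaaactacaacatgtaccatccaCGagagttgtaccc
Tbx4 chr11:85896515-85896814 (plus strand): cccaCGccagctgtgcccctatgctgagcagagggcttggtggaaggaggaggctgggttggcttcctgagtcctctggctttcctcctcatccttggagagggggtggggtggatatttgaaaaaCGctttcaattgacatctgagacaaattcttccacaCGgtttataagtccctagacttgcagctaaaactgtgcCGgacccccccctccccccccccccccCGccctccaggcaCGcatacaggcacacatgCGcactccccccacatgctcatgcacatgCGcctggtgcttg

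RefSeq promoters were matched for 6 members, 7 sequences in all, since Tbx1 has 2 starts. No match was made for Tbx2, Tbx3, Tbx5 and Tbx15. The number of CG dinucleotides was 26 at Tbx20, 26 and 16 at the starts of Tbx1, 17 at T, 10 at Eomes, 8 at Tbx4 and 7 at Tbx6. The 300 bp sequences with the fewest were thus the pair with no base under Ring1b. The wider deposited promoter at this start of Tbx4 is listed with Ring1b only, through a peak 875 bp away. Over all 20488 promoter sequences of this length the median was 14, with 23 in the 4809 that had a base under Ring1b and 9 in the 15679 that had none. Corrected for base composition, the observed over expected CG ratio was 0.607 at both T and Eomes, between the medians of 0.763 with Ring1b and 0.447 without. It was 0.314 at Tbx4 and 0.286 at Tbx6. In the 10853 sequences with a base under KAP1 the medians were 22 CG dinucleotides and a ratio of 0.780. High CG content was thus not particular to sequences with Ring1b.

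The core of the T-box binding element, AGGTGT, was searched on both strands. It occurred in 2 of the 7 member sequences, 14 bp before the start of T (ccaggtgtaa) and 76 bp before the upstream start of Tbx1 (agaggtgtaa). Of all promoter sequences, 12.7% held it. The longer form AGGTGTGA, which contains the core, was in none of the 7 and in 1.15% of all. A match describes letters only and is not a measured site.

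At their deposited promoters, which reach 1 kb to each side of a transcript start, most members had a listed peak of both proteins. Ring1b lay at a promoter of 8 of 10 members, against 28.6% of all genes. KAP1 lay at a promoter of 8 of 10, against 58.3% of all genes. Both were at promoters of T, Eomes, Tbx2, Tbx4, Tbx5, Tbx15 and Tbx20, which is 7 of 10 against 24.8% of all genes. Tbx1 had Ring1b only, Tbx3 had KAP1 only, and Tbx6 had neither, a state shared by 37.8% of all genes. The counts with KAP1 depended on weak peaks. With only peaks at or above each list's median score, Ring1b stayed at 8 members, against 18.8% of all genes. KAP1 then lay at 4, against 43.7%, a share near the background, and both proteins lay at 3, against 12.1%. Within 5 kb of a start, Ring1b lay at 9 members, KAP1 at 10 and both at 9, against 32.7%, 65.9% and 29.7% of all genes. In the whole-gene tables each of these counts was 8, against 32.6%, 61.0% and 30.6%.

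**Figure D1:**
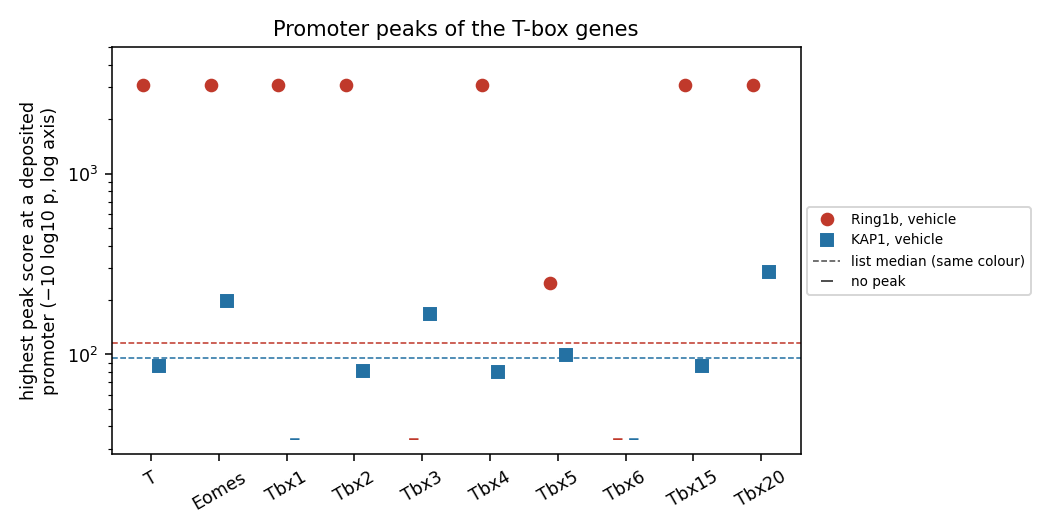
Highest peak score at a deposited promoter of each T-box gene (vertical log axis, 10 times −log10 p), with vehicle Ring1b as red circles, vehicle KAP1 as blue squares, short dashes for no peak and dashed lines at each list's median. Ring1b reached 3100 at 7 members and 250 at Tbx5, while KAP1 scores ran from 79.6 at Tbx4 to 287 at Tbx20.

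The Ring1b promoter score was 3100 at T, Eomes, Tbx1, Tbx2, Tbx4, Tbx15 and Tbx20 and 250 at Tbx5, against a list median of 116. All 8 therefore lay in the upper part of the Ring1b list. KAP1 was much nearer to its own list median of 96.2. Its promoter score was 287 at Tbx20, 198 at Eomes, 168 at Tbx3 and 98.8 at Tbx5, all above that median. It was 86.8 at Tbx15, 86.2 at T, 80.7 at Tbx2 and 79.6 at Tbx4, all below it.

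Among the genes of gastrulation, T, which encodes Brachyury and is needed for mesoderm and notochord, had a single Ring1b peak. It spanned chromosome 17 from 8432215 to 8435848, 3634 bp wide with a score of 3100, and covered the transcript start at 8434423. Inside it lay 3 KAP1 peaks with scores of 86.2, 52.9 and 58.7, the nearest 43 bp from the start. A further 2 KAP1 peaks with scores of 58.4 and 87.7 lay in the flank before the gene, and the rest of the gene body was free of all 3 lists. In the deposited whole-gene tables T appears under the name T/Brachury.

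Eomes, which acts in the primitive streak, the definitive endoderm and the trophoblast, carried wide Ring1b peaks at both ends. The first covered the start (chromosome 9, 118475816 to 118480864, 5049 bp, score 3100) and the second began 102 bp past the gene's end (118486234 to 118489346, 3113 bp, score 2940). A small peak of 240 bp with a score of 71.8 lay in the gene body between them. The only KAP1 peak inside the first domain had a score of 198 and was 1815 bp wide, so 35.9% of the domain lay under KAP1. KAP1 also met the small body peak, with summits 21 bp apart, and overlapped the domain past the end with peaks scoring 63.5 and 82.8.

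Tbx6, which turns progenitors to paraxial mesoderm, had no vehicle Ring1b peak in the gene or within 10 kb of it. The nearest lay 23545 bp from the gene's end with a score of 51.8. Its 3 KAP1 peaks all lay in the flanks, with scores of 233, 158 and 182, and the nearest was 1141 bp from the start, just outside the 1 kb window. The other 9 of 10 members had vehicle Ring1b within this distance, against 43.7% of all genes. Every member had at least 1 KAP1 peak there, against 79.4% of all genes.

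**Figure D2:**
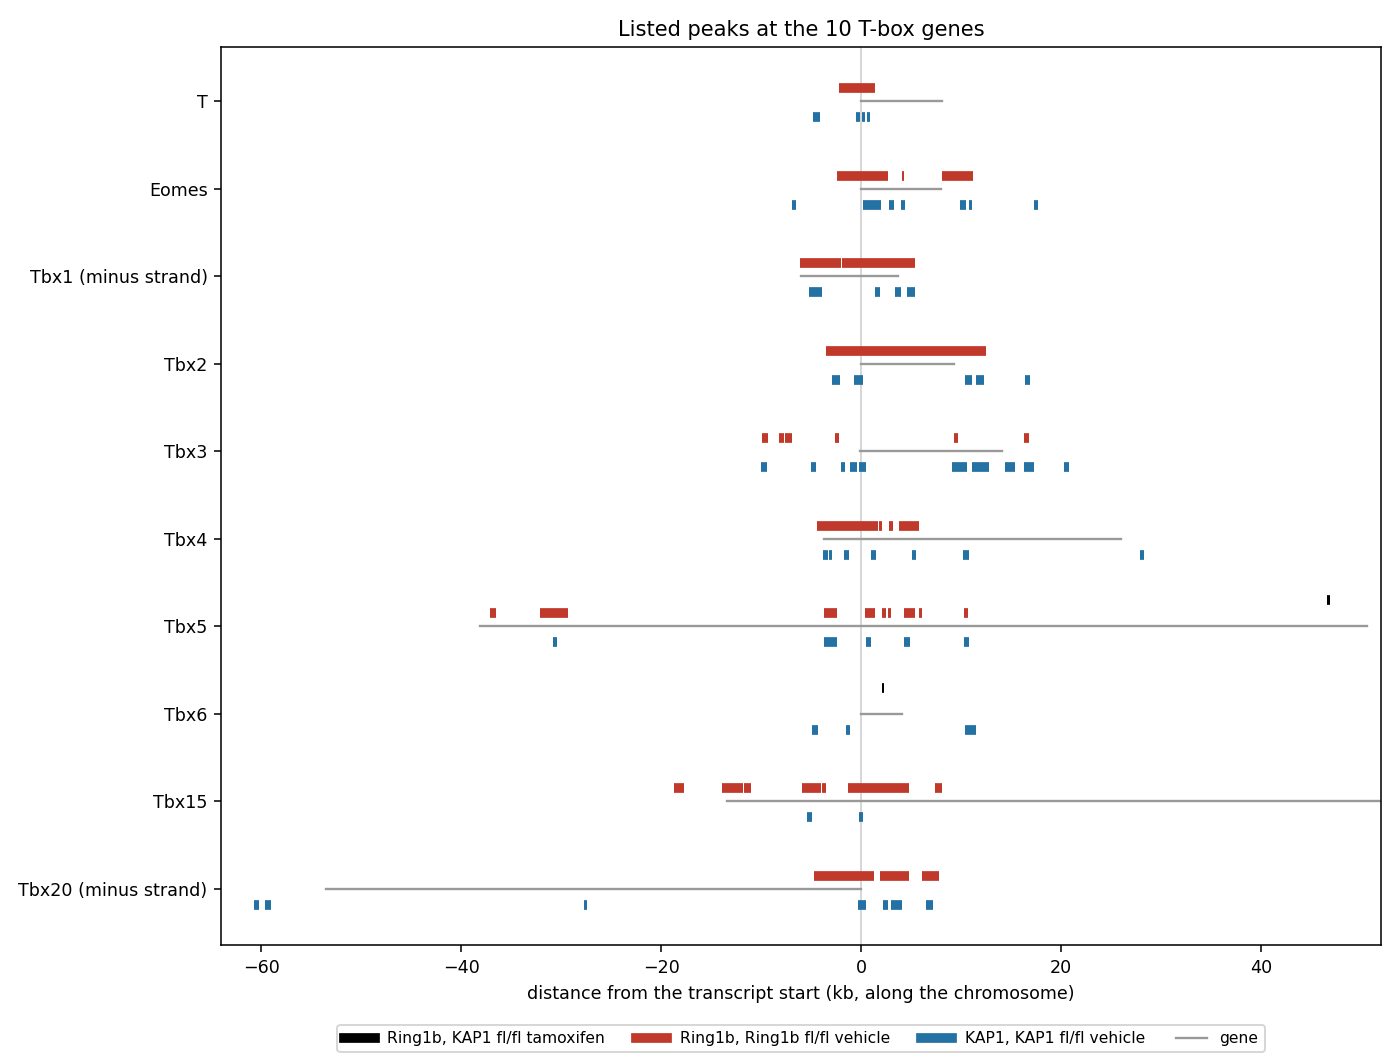
Listed peaks at each T-box gene against distance from the transcript start along the chromosome (horizontal axis, kb), with black bars for Ring1b in tamoxifen-treated KAP1 fl/fl cells, red bars for vehicle Ring1b, blue bars for vehicle KAP1 and a grey line for the gene. Black bars occur only at Tbx5 and Tbx6, and the longest red bar, 16004 bp, covers the whole of Tbx2. The gene line of Tbx15 runs past the right edge.

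Tbx2 and Tbx4 are neighbours on chromosome 11. Tbx2, a repressor of heart chamber and limb genes, lay whole under 1 Ring1b peak from 85829072 to 85845075. That peak was 16004 bp wide, the 4th widest of the 13516 in the list, with a score of 3100. It held 4 KAP1 peaks with scores of 94.99, 80.7, 262 and 158, which together covered 20.9% of it. The KAP1 peak of 80.7 lay over the start of Tbx2, while the higher pair lay past its far end.

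Tbx4, which acts in hindlimb, allantois and lung, had a Ring1b domain of 6102 bp (85885653 to 85891754, score 3100) over its upstream promoter and 4 smaller Ring1b peaks farther into the gene. The domain held 4 KAP1 peaks with scores of 88.1, 56.1, 70.3 and 79.6 that covered 30.6% of it, and in 1 of them the summit lay 6 bp from that of Ring1b. The shared call at the upstream start rests on only 56 bp of KAP1 inside the 1 kb window. At the downstream start the Ring1b call rests on 126 bp of a peak 875 bp away, which scored 1340 and had a KAP1 summit 2 bp from its own.

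Within 25 kb of the Tbx2 and Tbx4 genes, 133483 bp in all, there were 0 knockout-list peaks, 6 vehicle Ring1b peaks and 13 KAP1 peaks. Ring1b covered 18.6% of the locus and KAP1 5.60%. The space of 44418 bp between the genes held no Ring1b peak that lay wholly inside it, and the 8.65% of its bases under Ring1b came from the edges of the domains at either gene. KAP1 had 4 peaks there. Of these, 2 lay inside the Tbx2 domain, with scores of 262 and 158, and 2 lay outside, with scores of 97.4 and 54.5. The other genes in or beside the locus are Bcas3 and the long non-coding RNA gene 2610027K06Rik, under whose name the deposited tables list the merged promoter that includes Tbx2.

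Tbx3 and Tbx5 lie side by side on chromosome 5 and differed from the other pair. Tbx3, a repressor known for roles in limb, mammary gland and pluripotent cells, had no Ring1b peak at its promoter, and the nearest lay 2166 bp from the start with a score of 77.6. Its 6 Ring1b peaks were 370 to 631 bp wide with scores of 77.6 to 153, and none approached the 3100 seen at 8 other members. KAP1 by contrast had 11 peaks there, the most of any member, with scores of 56.5 to 225. They covered 8755 bp, also the most of any member. Over all genes the 90th percentile was 9 KAP1 peaks and 5449 bp, and the 99th was 22 peaks and 13588 bp. The start of Tbx3 lay under a KAP1 peak scoring 168.

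Tbx5, needed for forelimb and heart, had 10 Ring1b peaks, the most of any member, all inside the gene. At the deposited start (119834663) Ring1b scored 250 and KAP1 98.8, with summits 10 bp apart. The strongest Ring1b peak of the gene was elsewhere, at 119802499 to 119805398, with a score of 3100 and a width of 2900 bp. It lay nearer to the low-coordinate end of the RefSeq gene, 119796514, than to the deposited start, and its KAP1 peak scored 57.3. Between these a peak at 119830922 to 119832224 scored 517 and met 2 KAP1 peaks. All 6 KAP1 peaks at Tbx5 overlapped Ring1b, and their scores ran from 57.3 to 98.8.

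**Figure D3:**
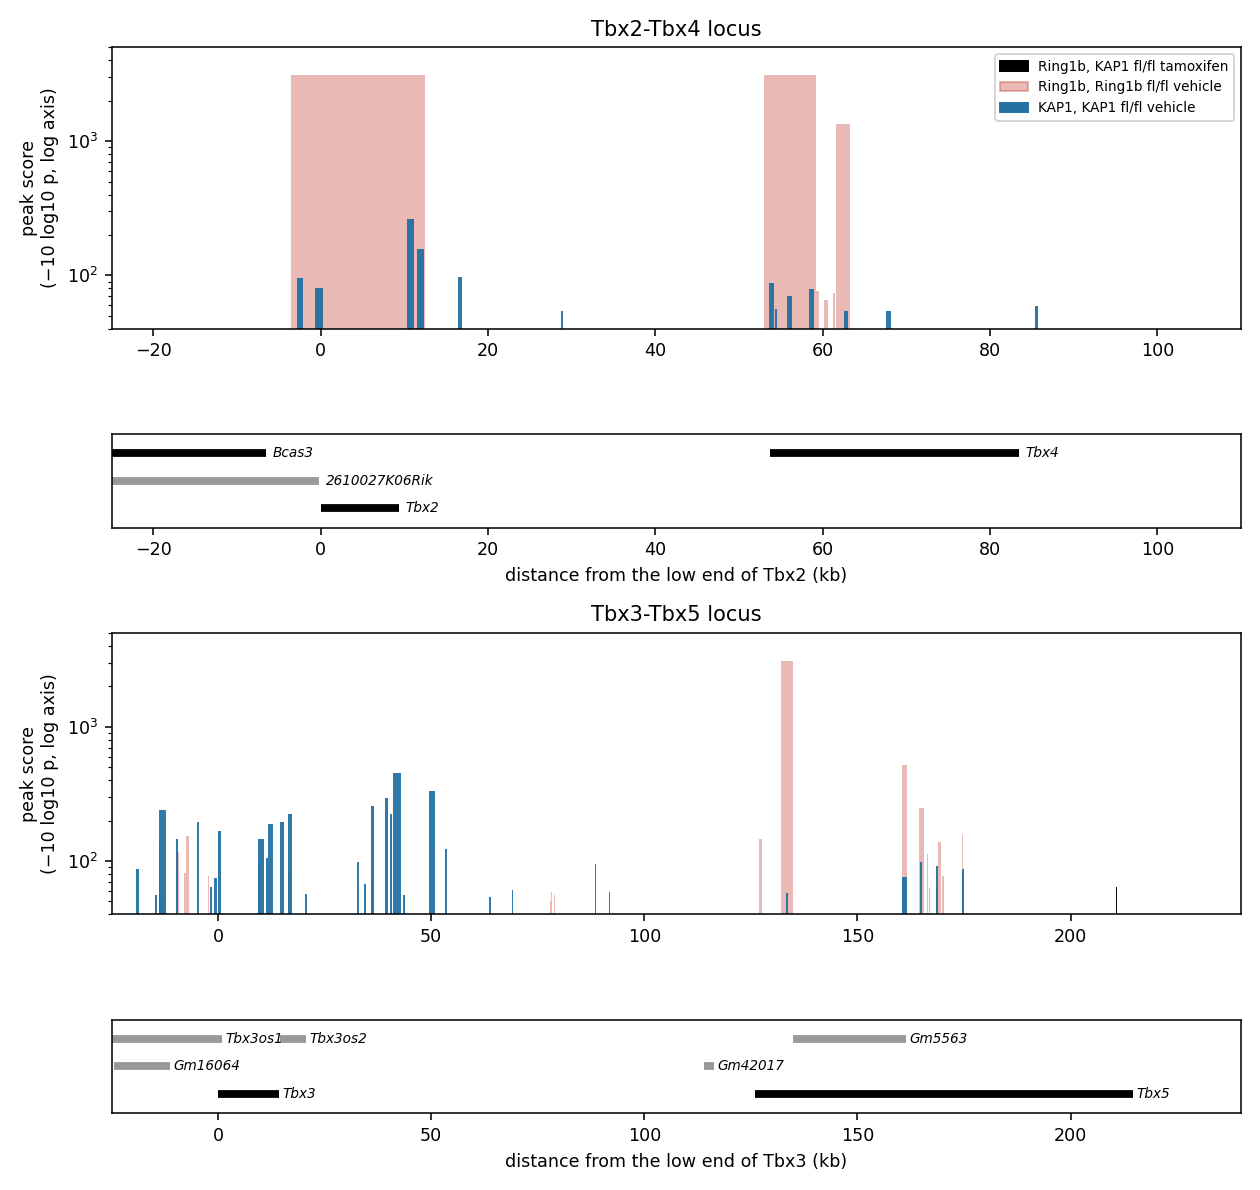
Peaks at the Tbx2 and Tbx4 locus (upper panels) and at the Tbx3 and Tbx5 locus (lower panels), as bars drawn to the peak's width and score (vertical log axis, 10 times −log10 p) against distance from the low end of the first gene (kb), with black for the knockout list, pale red for vehicle Ring1b and blue for vehicle KAP1. The strips show protein-coding genes in black and non-coding genes in grey. Ring1b covered 18.6% of the first locus and 5.07% of the second, and KAP1 5.60% and 8.64%.

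Within 25 kb of Tbx3 and Tbx5, 264687 bp in all, there were 1 knockout-list peak, 22 vehicle Ring1b peaks and 33 KAP1 peaks. Ring1b covered 5.07% and KAP1 8.64%, so the order of the proteins was the opposite of that at Tbx2 and Tbx4. Over the whole lists KAP1 covered 49.9 Mb and Ring1b 14.2 Mb. The order over the Tbx3 and Tbx5 locus was thus that of the lists, and the Tbx2 and Tbx4 locus departed from it. By gene widened by 10 kb, Tbx5 itself had more bases under Ring1b, 8298 bp, than under KAP1, 3184 bp. So did every other member except Tbx3, with 3098 bp and 8755 bp, and Tbx6, with 0 bp and 2077 bp. Between the genes, over 111789 bp, Ring1b had 5 peaks with a highest score of 83.4 that covered 1.57%. KAP1 had 16 peaks there with a highest score of 455 that covered 9.80%. The score of 455 exceeded that of every KAP1 peak at the members themselves, where 287 was the highest. Non-coding genes annotated in the locus are Tbx3os1, Gm16064, Tbx3os2, Gm42017 and Gm5563.

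The KAP1 peaks between Tbx3 and Tbx5 were gathered in a run from 119703101 to 119739715, where 11 peaks fell within 36615 bp. Their scores were 53.8 to 455 with a median of 123, and 7 of the 11 reached the list median. Ring1b had 1 peak in the run, 532 bp wide with a score of 73.2, and the knockout list had 0. No gene of the RefSeq table used here lies in the run.

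Among the genes of heart and pharynx, Tbx1, which patterns the pharyngeal arches and outflow tract, had 9635 of its 9693 bp under adjoining Ring1b peaks of 7308 bp and 4159 bp (chromosome 16, 18585036 to 18592343 and 18580819 to 18584977), both at 3100. Its promoter was listed with Ring1b only. The deposited start was at 18586970, and the nearest KAP1 peak lay 1364 bp away. At the RefSeq starts KAP1 was closer. A peak scoring 68.7 lay 76 bp from the start at 18588899, and the start at 18590671 lay under a peak scoring 123, with another of 167 within 1 kb. In the gene body a KAP1 peak of 109 had its summit 3 bp from the Ring1b summit.

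Tbx20, a factor of the developing heart, had 3 Ring1b peaks in a row at its start and upstream of it on the minus strand. They were 5983, 2879 and 1607 bp wide, with scores of 3100, 2181 and 979. All 3 held KAP1. The KAP1 peak over the start scored 287, the highest at any member, yet its summit lay 3672 bp from the Ring1b summit of the same domain. At the upstream peaks the smallest summit distances were 492 and 23 bp.

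Tbx15, which acts in the limb skeleton and in skin pigment pattern, combined much Ring1b with little KAP1. Its 7 Ring1b peaks covered 12946 bp, next to Tbx2 the most of any member, and its 2 KAP1 peaks covered 839 bp, the least. The promoter domain was 6138 bp wide (chromosome 3, 99252438 to 99258575, score 3100) and 6.70% of it lay under KAP1, the lowest share among the member domains of 5 kb or wider. A second peak at 3100 (99239833 to 99241981, 2149 bp) was the only member peak with that score that met no KAP1 peak. It covered the low-coordinate end of the RefSeq gene, 99240348, from which the nearest KAP1 peak lay 8031 bp away. The deposited start was at 99253760.

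The bases under Ring1b in the gene widened by 10 kb summed up these differences. They came to 16004 bp at Tbx2, 12946 bp at Tbx15, 11467 bp at Tbx1, 10469 bp at Tbx20, 8858 bp at Tbx4, 8402 bp at Eomes, 8298 bp at Tbx5, 3634 bp at T, 3098 bp at Tbx3 and 0 bp at Tbx6. The members' median was 8630 bp, against 0 bp over all genes and 1097 bp over the 9182 genes with a Ring1b peak there. The 99th percentile of all genes was 9514 bp, which Tbx2, Tbx15, Tbx1 and Tbx20 exceeded. Among the 9182 genes with a Ring1b peak there it was 13515 bp, which only Tbx2 exceeded. A Ring1b peak of 3100 or more lay at 8 of 10 members, against 3.84% of all genes.

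**Figure D4:**
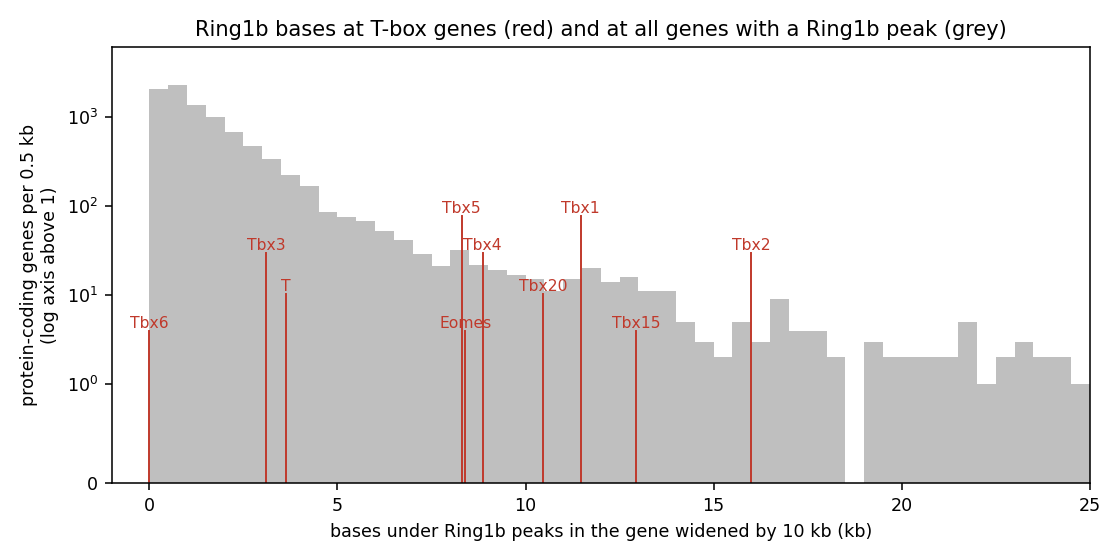
Bases under vehicle Ring1b peaks in each gene widened by 10 kb (horizontal axis, kb), with T-box genes as red lines and all protein-coding genes with a Ring1b peak there as a grey histogram (vertical axis, genes per bin, logarithmic above 1). Line heights are staggered for the labels only. The members with Ring1b lie between 3098 and 16004 bp, above the median of 1097 bp of the genes shown, and genes above 25 kb are not drawn.

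Long genes can collect more peaks, so bases were also counted within 5 kb of the starts. Among 19511 genes with a start, Tbx1 ranked 20 with 9942 bp, Tbx20 55 with 8862 bp, Tbx2 65 with 8543 bp, Tbx4 83 with 8030 bp and Tbx15 119 with 7507 bp. Eomes followed with 5289 bp, Tbx5 with 3754 bp and T with 3634 bp. Tbx3 had 452 bp and Tbx6 0 bp. For genes with several starts, such as Tbx1, the window with the most bases was taken. The members' median of 6398 bp compared with 0 bp over all these genes, whose 99th percentile was 6543 bp. For KAP1 the members' median was 2113 bp, against 778 bp, and their highest value, 2765 bp at Eomes, stayed below the 99th percentile of 4186 bp.

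Over all 38 vehicle Ring1b peaks at the members, the median score was 279 against 116 in the whole list, and 10 of them, 26.3%, were at 3100 against 5.42%. Of the 38, 6 peaks or 15.8% were 5 kb or wider, against 1.83% of the list. Peaks of 1 gene share a locus, so these shares describe the genes and are not independent counts. The 6 wide peaks belonged to Tbx2, Tbx1, Tbx15, Tbx4, Tbx20 and Eomes.

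Overlap with KAP1 ran the other way. KAP1 was present at 23 of the 38 Ring1b peaks, or 60.5%, against 76.6% of the whole list. Peaks of 1 gene are not independent, so no interval is given. With an overlap of at least 50% of the Ring1b peak the share was 23.7%, against 63.5%. That setting depends on Ring1b width, since KAP1 peaks at the members had a median width of 540 bp. No member peak at 3100 met it, the highest share under KAP1 being 35.9% at Eomes. With only the peaks at or above each list's median score the share was 37.5%, against 58.9%. With Ring1b peaks merged within 1 kb it was 19 of 25, or 76.0%, against 82.5%, a smaller gap. By score, the gap lay among the peaks below 3100. At 3100 or more, 9 of 10 member peaks met KAP1 against 83.5% of such peaks in the list, and below 3100 it was 14 of 28, or 50.0%, against 76.2%. By gene, 3 of 3 Ring1b peaks met KAP1 at Eomes and at Tbx20, 6 of 10 at Tbx5, 3 of 6 at Tbx3, 2 of 5 at Tbx4 and 2 of 7 at Tbx15, and every Ring1b peak did at T, Tbx1 and Tbx2.

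**Figure D5:**
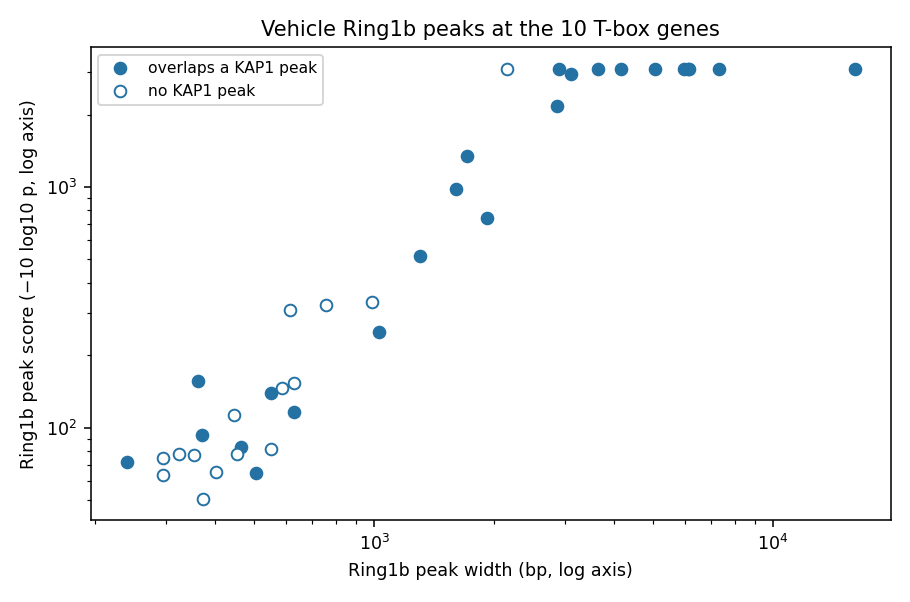
Width (horizontal log axis, bp) and score (vertical log axis, 10 times −log10 p) of the 38 vehicle Ring1b peaks at the T-box genes, filled where the peak overlaps a KAP1 peak and open where it does not. Of the 10 peaks at 3100, 9 are filled, and of the 28 below, 14 are filled.

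Where the proteins met, their summits were about as close at the members as elsewhere. The median distance between Ring1b and KAP1 summits was 102 bp at the members and 112 bp in the whole list, and 7 of 23 pairs, 30.4%, lay within 50 bp against 33.9%. Pairs within 10 bp occurred at Tbx1, Tbx4 and Tbx5 and numbered 4, or 17.4% against 9.21%. In the other direction, 35 of the 57 KAP1 peaks at the members overlapped Ring1b, 61.4% against 13.7% of the KAP1 list. The members hold much Ring1b, a median of 8630 bp against 0 bp over all genes, so this share is not separate from that coverage. Those 35 KAP1 peaks had a median score of 90.6, against 139 for all KAP1 peaks that overlapped Ring1b. KAP1 peaks without Ring1b scored a median of 95.2 at the members and 91.7 in the list.

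The knockout list, Ring1b peaks of tamoxifen-treated KAP1 fl/fl cells, held little at these genes. A peak of that list lay at 2 of 10 members, against 21.8% of all genes with the gene widened by 10 kb and 14.3% inside the gene. At Tbx5 it was 181 bp wide with a score of 64.0, near the far end of the gene (119881257 to 119881437). At Tbx6 it was 241 bp wide with a score of 62.0 (chromosome 7, 126783565 to 126783805), in the gene body. Both scores were close to that list's median of 58.9, both widths exceeded its median of 158 bp, and neither peak overlapped a vehicle peak of Ring1b or KAP1. The share of members was thus near the background.

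No vehicle Ring1b peak at a T-box gene was met by a knockout-list peak. That is 0 of 38, and in the whole vehicle list the share was 0.326%. Peaks of the same gene are not independent, so 0 of 38 sets no firm upper limit on the share, and none is given. The 16004 bp domain over Tbx2 and the other peaks at 3100 therefore had no counterpart in the knockout list, as was so for nearly all Ring1b peaks of the series. The lists differ in cell line, in the library they were called against and in number of peaks, and the effect of KAP1 deletion cannot be told apart from these.

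A list of 32 genes that act with the family was described in the same way. It holds upstream signals, corepressors, and partners or targets of T-box factors. Ring1b lay at a promoter of 25 of the 32, KAP1 at 28 and both at 24, against 28.6%, 58.3% and 24.8% of all genes. As at the members, the counts with KAP1 include weak peaks. KAP1 promoter scores ran from 52.25 at Gata4 to 512 at Nodal and lay on both sides of that list's median of 96.2. Among those below it were Nkx2-5 at 59.2, Hand2 at 61.2 and Shh at 64.8. Of the 29 with a deposited promoter, 0 had a knockout-list peak there, against 3.61% of all such genes, so 0 was near the background. Of the 8 upstream signals, 7 had Ring1b, against the same 28.6% of all genes. The promoter score was 3136 at Fgf8, a growth factor of streak, limb and heart field. Wnt3a, Shh and Aldh1a2, which makes retinoic acid, were at 3100. Bmp4 had Ring1b only, scoring 1786. Nodal, which induces Eomes, had KAP1 only, scoring 512.

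Of the 6 corepressors, all had KAP1 and 4 had Ring1b, against 58.3% and 28.6% of all genes. Ripply2 and Ripply3, which turn T-box factors into repressors, had Ring1b scores of 1700 and 1062, while Ripply1 had KAP1 only, scoring 83.4. The Groucho-type corepressor Tle4 also had KAP1 only, scoring 202. Of the 18 partners and targets, 14 had both proteins, against 24.8% of all genes. Among these were Gsc, Lhx1, Foxa2, Dll1, Nkx2-5, Gata6, Hand1 and Hand2, all with Ring1b at 3100. Sall4, a pluripotency factor, had KAP1 only, scoring 116. Msgn1, a target of Tbx6 in paraxial mesoderm, and Nppa and Gja5, heart genes controlled by Tbx5, had neither protein at a deposited promoter.

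The other 7 mouse T-box genes spanned the same states. Tbr1, Mga and Tbx21 had both proteins at a promoter, Tbx18 had Ring1b only, Tbx19 had KAP1 only, and Tbx10 and Tbx22 had neither. Ring1b thus lay at 4 of 7, KAP1 at 4 and both at 3, against 28.6%, 58.3% and 24.8% of all genes. The KAP1 promoter score was 57.2 at Tbr1 and 94.0 at Tbx19, below the list median of 96.2, and 131 at Tbx21 and 297 at Mga. At Tbx18 a Ring1b promoter peak scoring 1706 met a KAP1 peak outside the promoter window, with summits 15 bp apart. The Ring1b promoter score was 3100 at Tbr1 and Tbx18, 2180 at Tbx21, the T-bet gene of T cells, and 216 at Mga, which encodes a T-box protein that also binds Max. Tbx21 had a knockout-list peak in its flank, with a score of 58.9. Tbx22 had no peak of any list in the gene or within 10 kb.

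Genes outside the family with the most similar amounts were found by 4 values in the gene widened by 10 kb, namely bases under Ring1b and under KAP1 and the highest score of each. The distance was taken on log10 values divided by their SD over 8826 genes with both proteins, from the median of the 9 members that had both. That median was 8858 bp of Ring1b and 3331 bp of KAP1, with highest scores of 3100 and 167. The nearest was Pou4f3 (8763 bp and 3203 bp), then Foxd1 (9161 bp and 2898 bp), Pax1 (9223 bp and 3109 bp), Ovca2 (7368 bp and 3856 bp) and Lbx1 (11291 bp and 3061 bp). Of these, 4 encode developmental transcription factors. Ovca2 overlaps Dph1, listed with KAP1 only at its promoter, and lies 5688 bp from Hic1, listed with both proteins.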

How the data were processed

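ChIP-seq peaks of KAP1 and Ring1b in mouse embryonic stem cells were analysed from 3 peak lists and 6 gene tables that the authors deposited. Tools named in the submitters' processing notes are bedtools 2.16.2, MACS 1.4.2, Bowtie2 and CASAVA 1.8.2, and the build is mm10 (GRCm38). Peak scores, as deposited and per the file headers, are 10 times −log10 p from MACS, comparing 1 library with another. Per the labels' protocols, cells were fixed for 10 min in 1.2% formaldehyde, chromatin was sheared to about 200 bp, and 5 µg of KAP1 or 3 µg of Ring1b antibody was used.

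Gene ends and names came from RefSeq (GRCm38.p6). A deposited promoter counted for every gene whose accession its row lists, including rows that merge neighbouring genes. A peak was assigned to a gene widened by 10 kb on both sides with at least 1 bp in common. By symbol alone 8 members were in a promoter table and 7 in a whole-gene table, and by accession 9 and 8. Tbx2 was listed in no whole-gene table although it lies under Ring1b, as were 746 of 7140 genes (10.4%) with a Ring1b peak in the gene. Tbx6 was in no table. KAP1 regions of the promoter tables have other borders than the listed peaks at Tbx3 and Tbx20, with table scores of 179 and 310 beside 168 and 287 in the list, which were used here.

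With 1 library for each group no test was made, and no interval is given. The 10 members and the list of 32 related genes were chosen with earlier results of these data known. Named besides them were the other T-box genes, genes in the 2 loci, pathway genes with the highest Ring1b score, including ties, or none, and the 5 nearest genes by occupancy. Other pathway genes were named after their values were seen. Scripts used Python 3.11.15, numpy 2.4.6, pandas 2.3.3, scipy 1.17.1 and matplotlib 3.10.9, and the overlap code was tested on simulated data.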

Additional observations from a re-analysis of the deposited data

How the results depend on the processing

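Of 21 alternative settings over 6 results, 17 left the value within 1.5 times the first. When peaks below their list's median score were left out, KAP1 lay at a promoter of 4 members, Tbx3, Tbx5, Tbx20 and Eomes, in place of 8, beside 43.7% of all genes. Both proteins then lay at 3 members in place of 7, beside 12.1%, and 37.5% of the members' Ring1b peaks met KAP1, beside 58.9% of the list. With an overlap of at least 50% of the Ring1b peak the share was 23.7%, beside 63.5% of the list. The cause was not tested. Ring1b lay at 8 or 9 members, KAP1 at 8 or 10 and both at 8 or 9 when the whole-gene tables or peaks within 5 kb of a start were used, beside shares of all genes between 29.7% and 32.7% for Ring1b and for both, and 61.0% and 65.9% for KAP1. Widening genes by 50 kb put a knockout-list peak at 3 members, adding Eomes, beside 44.4% of all genes. The members' median of Ring1b bases ran from 6429 to 10217 bp, and the share of their peaks with KAP1 was 62.1% and 62.3% under the other gene widths. It was 68.4% within 1 kb, beside 84.1% of the list, and 76.0% with merged peaks, beside 82.5%. No paired analysis was possible because each group has 1 library. No replicate could be left out, and the sources used here give no read depths.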

Other observations

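The deposited whole-gene windows begin 1 kb below the low-coordinate end of many genes on both strands (1853 of 4702 genes on the plus strand and 2606 of 4765 on the minus strand), and 0 end 1 kb above the high end. For Tbx20, on the minus strand, the added stretch therefore lies past the transcript's end. The whole-gene entry of Tbx1, also on the minus strand, covers 18580713 to 18586969, without the RefSeq starts at 18588899 and 18590671. In that entry Tbx1 has both proteins, through the KAP1 peak scoring 109 in the gene body, while its promoter entry has Ring1b only.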
